A study of Mus musculus with 28 samples.

Results

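The 10 genes described here encode Polycomb repressive complex 2 (PRC2) and were chosen by symbol: Ezh1, Ezh2, Eed, Suz12, Rbbp4, Rbbp7, Jarid2, Mtf2, Phf1 and Phf19. They were followed through 5 tables on mouse hair follicle stem cells, with every peak annotated to them, among 18274 genes named in any of those tables. The cells were sorted from skin as CD34+ and α6 integrin+ cells of young mice aged 6 months and old mice aged 24 months, both of the strain that the labels call 132-C67BL/6J, with no allele or treatment named for either age. RNA-seq covered 3 young and 3 old samples, ATAC-seq (open chromatin) 4 and 4, and H3K27me3 ChIP-seq 3 and 3. ChIP-seq of H3K4me3, like that of polymerase II (Pol2), covered 2 and 2, which makes 28 libraries. The design calls them biological replicates, without saying whether a sample is 1 animal or a pool, so the p-values measure the spread between these samples.

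PRC2 places methyl groups on lysine 27 of histone H3, and the trimethylated form, H3K27me3, marks silent developmental genes. Ezh1 and Ezh2 are the alternative catalytic subunits, Eed, Suz12 and the histone chaperones Rbbp4 and Rbbp7 complete the core, and accessory proteins steer it to chromatin: the Polycomb-like proteins Phf1, Mtf2 and Phf19 form one class of PRC2, and Jarid2 belongs to the other. In skin, PRC2 is known for holding epidermal differentiation genes and the genes of other lineages silent. H3K4me3 marks promoters that are active or poised, and Pol2 at a promoter is polymerase that has been recruited there.

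The promoters of 5 members show the sequence on which H3K4me3 changes lie, and, except in Phf19, Pol2 changes too. Eed, Jarid2 and Phf19 had the largest falls of H3K4me3 at a promoter peak (for Jarid2 and Phf19, at a second start not printed here), Ezh2 had the largest fall of Pol2, and Phf1, added after its values were seen, was the member listed in the RNA table. Each line gives the 250 bases before a RefSeq start (GRCm38.p6), 5′ to 3′ on the gene's strand, in lower case; capitals mark matches on either strand. The motifs marked were the GC box, spelled GGGCGG, the box named for its letters CCAAT, the E2F-like motif spelled TTTCCCGC, and the TATA box, spelled TATAAA.
Ezh2, chr6:47595031-47595280, minus strand: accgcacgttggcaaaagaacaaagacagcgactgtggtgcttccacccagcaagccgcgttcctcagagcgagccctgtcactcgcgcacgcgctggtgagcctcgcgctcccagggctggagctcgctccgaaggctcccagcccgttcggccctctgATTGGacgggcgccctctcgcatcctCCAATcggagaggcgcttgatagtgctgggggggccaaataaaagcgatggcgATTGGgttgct
Eed, chr7:89980977-89981226, minus strand: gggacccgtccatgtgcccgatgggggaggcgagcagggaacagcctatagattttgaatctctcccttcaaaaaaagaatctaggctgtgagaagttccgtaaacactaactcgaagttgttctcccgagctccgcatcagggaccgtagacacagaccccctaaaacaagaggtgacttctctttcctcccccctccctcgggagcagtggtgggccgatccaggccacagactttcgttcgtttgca
Jarid2, chr13:44731021-44731270, plus strand: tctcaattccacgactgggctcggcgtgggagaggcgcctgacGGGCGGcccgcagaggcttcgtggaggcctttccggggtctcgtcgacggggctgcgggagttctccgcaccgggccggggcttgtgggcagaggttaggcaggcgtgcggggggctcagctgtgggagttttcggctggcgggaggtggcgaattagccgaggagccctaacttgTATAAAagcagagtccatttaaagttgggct
Phf1, chr17:26932877-26933126, plus strand: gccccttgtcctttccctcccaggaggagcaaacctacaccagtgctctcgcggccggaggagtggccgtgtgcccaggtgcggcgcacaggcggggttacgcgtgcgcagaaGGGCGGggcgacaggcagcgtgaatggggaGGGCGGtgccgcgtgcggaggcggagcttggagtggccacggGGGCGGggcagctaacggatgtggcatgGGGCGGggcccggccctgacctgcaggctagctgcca
Phf19, chr2:34913977-34914226, minus strand: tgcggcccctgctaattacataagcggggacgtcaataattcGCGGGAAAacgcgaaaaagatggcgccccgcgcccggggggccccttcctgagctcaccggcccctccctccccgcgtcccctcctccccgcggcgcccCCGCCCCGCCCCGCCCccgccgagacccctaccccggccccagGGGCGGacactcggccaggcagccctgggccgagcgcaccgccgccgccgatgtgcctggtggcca
The Ezh2 window holds 3 CCAAT boxes, the Phf1 window 4 GC boxes, and the Eed window none of the 7 motifs searched. In Phf19, 3 of the 4 GC boxes follow each other, each sharing 1 base with the next, and no other motifs overlapped in the members. The table of promoters held 12 for the 10 members, and 8 of these starts were the same base as a start named in the ChIP tables. Over these 12 promoters the median was 23 CG dinucleotides, from 2 to 37, against 6 over all 32851 promoters. GC boxes were in 8 of 12 member promoters and in 32.7% of all promoters. CCAAT boxes were in 6 of 12 and in 33.8% of all. The E2F-like motif was in 2 of 12, those of Suz12 and Phf19, and in 0.895% of all; TATAAA was in 1 of 12, the Jarid2 promoter printed above, and in 12.4% of all. Searched likewise, a second E2F-like motif (TTTGGCGC) was in 0 of 12 and in 0.417% of all promoters, an ETS core (CCGGAAG) in 0 of 12 and in 6.91% of all, and an NRF1 motif, given by name only, in 0 of 12 and in 0.782% of all.

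Phf1 was the member that the RNA table listed. The authors' deposited table of RNA gave Phf1 (ENSMUSG00000024193) a log2 change of -0.63 (SE 0.17) in old against young samples, or 1.54-fold lower, with an adjusted p of 0.0246 by DESeq2 and a mean level of 567 normalized reads over all libraries. Phf1 is a Polycomb-like protein that binds methylated lysine 36 of histone H3 through its Tudor domain. The table lists 597 genes, all with an adjusted p up to 0.1; of these 18.8% were called lower and 38.0% higher at 0.05, the threshold used for every call here. The other 9 members are not listed, which gives no value for them and does not show that their RNA was equal at both ages. Since the cells were measured in bulk, fewer cells of a type and less RNA per cell cannot be told apart.

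At the promoters, H3K4me3 was lower in old samples at each of the 10 PRC2 genes. Of their 18 H3K4me3 peaks, 14 were called lower and 0 higher in the authors' deposited table (all 18 lay below 0), and of the 12 peaks within 1 kb of a start, all 12 were called lower. Most of that table moved the same way: 79.1% of all 21390 peaks and 94.3% of the 13505 promoter peaks were called lower at an FDR under 0.05, and 0.281% and 0.037% higher. The median log2 change was -1.51 over the 12 member peaks (from -1.80 to -1.27) and -1.42 over all promoter peaks in the authors' deposited table, and 8 of the 12 lay below that median, a comparison added after seeing the data. The loss at PRC2 genes was thus close to that of promoters in general, and the sources used here do not name the normalization behind the authors' levels. The levels below are the authors' means per age on the log2 scale of normalized reads in a peak, with no values per library, and depth is unknown.

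Of the catalytic pair, Ezh2 fell from a level of 11.84 in young to 10.36 in old samples in the authors' deposited table of H3K4me3, a log2 change of -1.48 (FDR 2.72e-06) at its 1 peak (chr6:47591879-47596958). Ezh1, which prevails in non-dividing cells, fell from 11.27 to 9.94 in the authors' deposited table, a change of -1.33 (FDR 1.91e-06). Both changes lay within 0.1 of the promoter median, and the difference between these 2 genes was not tested. Ezh1 had 4 smaller H3K4me3 peaks besides, 2 of them called lower in the authors' deposited table: one upstream of the gene (chr11:101230818-101232249, -1.75, FDR 0.000219) and one in an intron (chr11:101220808-101222012, -1.17, FDR 0.016). The other intronic peak (-0.60, FDR 0.328) and one 2 to 3 kb upstream (-0.92, FDR 0.0509) were not called in the authors' deposited table.

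Among the core subunits, Eed, which binds H3K27me3 and so lets the complex act beside its own product, fell from 11.69 to 9.99, a log2 change of -1.70 (FDR 6.72e-08) in the authors' deposited table of H3K4me3. Only 12.7% of promoter peaks had a lower log2 change than this Eed peak (chr7:89978499-89982592) in the authors' deposited table. A narrow peak inside Eed, 2 to 3 kb from the start, changed by -0.35 (FDR 0.527) in the authors' deposited table and was not called. Suz12, the scaffold of the core, fell from 11.57 to 10.23 in the authors' deposited table, a change of -1.35 (FDR 4.30e-06). Eed thus stood toward the lower end of all promoters, and Suz12 on the other side of their median. The chaperones Rbbp4 (11.86 to 10.29) and Rbbp7 (10.75 to 9.17) each fell by 1.57 on the log2 scale in the authors' deposited table (FDR 1.94e-07 and 1.32e-06). Both chaperones also serve other chromatin complexes.

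Among the accessory genes, Phf1 fell from 11.88 to 10.35 in the authors' deposited table of H3K4me3, a log2 change of -1.53 (FDR 1.45e-07), with its peak at chr17:26931094-26936610. Mtf2, a Polycomb-like protein that binds unmethylated CpG islands, fell from 11.04 to 9.62, a change of -1.42 (FDR 3.85e-06) in the authors' deposited table. The Mtf2 change equals the median of all promoters, and a narrow Mtf2 peak 1 to 2 kb upstream changed by -0.63 (FDR 0.269, not called) in the authors' deposited table. Phf19, the remaining Polycomb-like gene, had 2 starts with a peak. At its main start (chr2:34912596-34914934) the level went from 10.30 to 9.03, a change of -1.27 (FDR 0.00012) in the authors' deposited table. At the second, downstream start (chr2:34904263-34904914) it went from 7.67 to 5.87 in the authors' deposited table, a change of -1.80 (FDR 3.24e-05). The smallest and the largest change among the 12 member peaks therefore came from the 2 starts of 1 gene; the difference between these starts was not tested. Jarid2 had a smaller gap between its starts, also not tested: its main promoter went from 12.85 to 11.39 in the authors' deposited table, a change of -1.46 (FDR 2.18e-06), and an internal start (chr13:44839935-44841002) from 7.78 to 6.02, a change of -1.76 (FDR 1.04e-04).

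**Figure D1:**
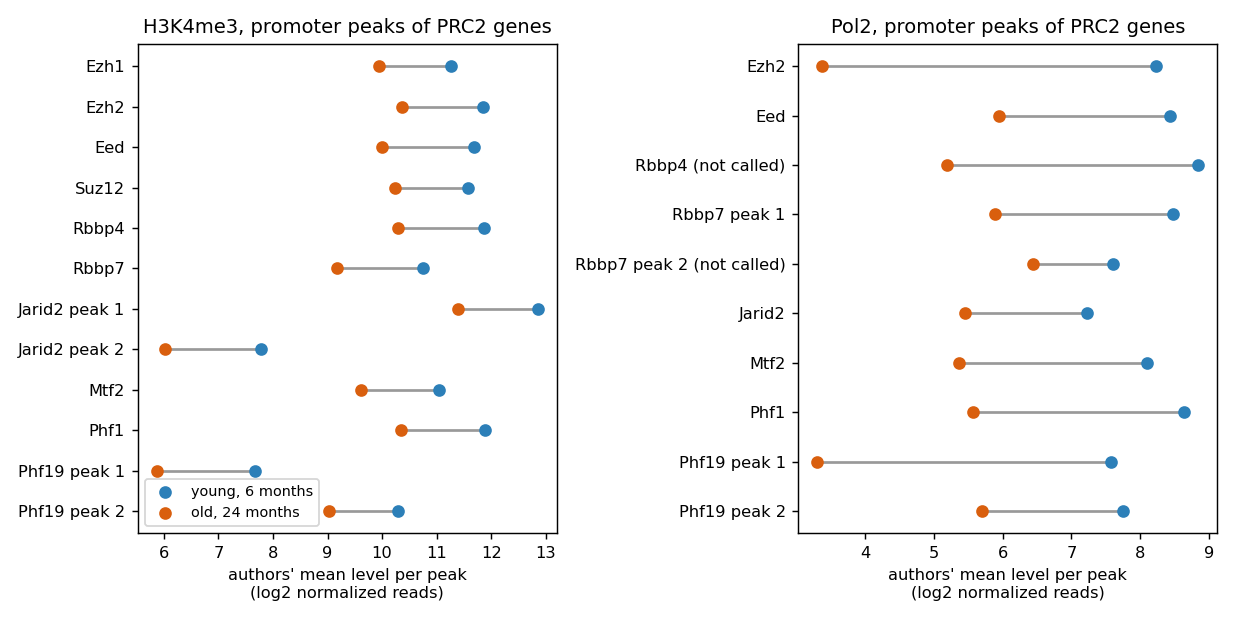
Authors' mean level (log2 normalized reads per peak, horizontal axis) at each promoter peak of the PRC2 genes in young (blue) and old (orange) samples, for H3K4me3 (left, 12 peaks) and Pol2 (right, 10 peaks); no error bars are drawn because the tables give none. Every old point lies left of its young point, and the widest gap is that of Ezh2 in Pol2, from 8.23 to 3.37.

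Per length, Jarid2 had the highest young H3K4me3 level of the 10 genes, 876 normalized reads per kb at its main promoter in the authors' deposited table, followed by Eed (807) and Ezh2 (722). Ezh1 had the lowest at its main start, 452 reads per kb in the authors' deposited table, near the median of 476 over all promoter peaks. Old levels per kb in the authors' deposited table ran from 157 at Rbbp7 to 318 at Jarid2 over these main peaks, with a median of 179 over all promoter peaks. Jarid2 thus led at both ages. Its peak was also the widest, 8432 bases, wider than 94.6% of promoter peaks in the authors' deposited table, and that of Rbbp4 came next with 7770 bases (92.9%). Neither spread nor order of these levels can be tested, since only means per age are used.

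Several members have other genes close by, and whether a peak reaches them was not tested. Within 5 kb of a member lie Cul1 (Ezh2), Cntnap1 (Ezh1), Sync and Zbtb8os (Rbbp4), Txlng (Rbbp7), Dtnbp1 (Jarid2), Kifc5b and Cuta (Phf1) and Cutal (Phf19), among other genes in the RefSeq table. A peak on the Phf1 span is annotated to Cuta and changed by -1.60 (FDR 1.51e-07) in the authors' deposited table of H3K4me3. Another, on the Phf19 span, carries no gene name there and changed by -1.89 (FDR 7.30e-05) in the authors' deposited table.

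Pol2 was lower in old samples at the promoters of 7 PRC2 genes, with Ezh2 showing the largest fall. Of 10 promoter peaks in 8 genes, 8 were called lower and 0 higher in the authors' deposited table of Pol2 (all 10 lay below 0); Ezh1 and Suz12 have no peak there. The background was again high, with 52.9% of all 6789 peaks and 79.1% of the 3743 promoter peaks called lower, and 0.0442% of all peaks higher. The median log2 change was -2.67 over the 10 member peaks and -2.28 over all promoter peaks in the authors' deposited table, and 7 of the 10 lay below that median, likewise added. The share of member peaks called was therefore near that of all promoters.

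Ezh2 went from 8.23 in young to 3.37 in old samples in the authors' deposited table of Pol2 (chr6:47594316-47595331), a log2 change of -4.86 or 29.0-fold (FDR 0.0152). That ratio rests on a low old level, a mean of 10.3 normalized reads in the authors' deposited table. Only 2.99% of promoter peaks had a lower change, and Ezh2 ranked 123 from the lowest among all 6789 peaks of the authors' deposited table. Its H3K4me3 change, by contrast, lay close to the median of promoters, as given above. Among the core subunits, Eed went from 8.44 to 5.94 in the authors' deposited table of Pol2, a change of -2.50 (FDR 0.00463). Rbbp4 went from 8.85 to 5.19 in the authors' deposited table, a change of -3.66 that was not called (FDR 0.0576). Rbbp4 thus had a larger change than Eed and a weaker test. Rbbp7 had 2 peaks over its start, one called in the authors' deposited table (8.48 to 5.88, -2.60, FDR 0.0125) and one not (7.61 to 6.44, -1.18, FDR 0.19).

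All 3 Polycomb-like genes had Pol2 peaks called lower, as 79.1% of all Pol2 promoter peaks were. Phf1 went from 8.64 to 5.56 in the authors' deposited table of Pol2, a log2 change of -3.08 (FDR 0.00151), the smallest FDR among the members. Phf1 was thus lower in old samples in the RNA, H3K4me3 and Pol2 tables alike. Most promoter peaks were called lower in the last 2 (94.3% and 79.1%), so the shared direction does not set Phf1 apart. Mtf2 went from 8.10 to 5.37 in the authors' deposited table, a change of -2.73 (FDR 0.00361). Phf19 had both of its Pol2 peaks at the second start and none at the main one: one went from 7.57 to 3.30 in the authors' deposited table (-4.26, FDR 0.00735) and one beside it from 7.75 to 5.70 (-2.04, FDR 0.0149). Jarid2 went from 7.23 to 5.45 in the authors' deposited table, a change of -1.78 (FDR 0.0262), the smallest fall among the called Pol2 peaks of members. The 408-base Jarid2 peak lies at the start whose upstream sequence is printed above.

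**Figure D2:**
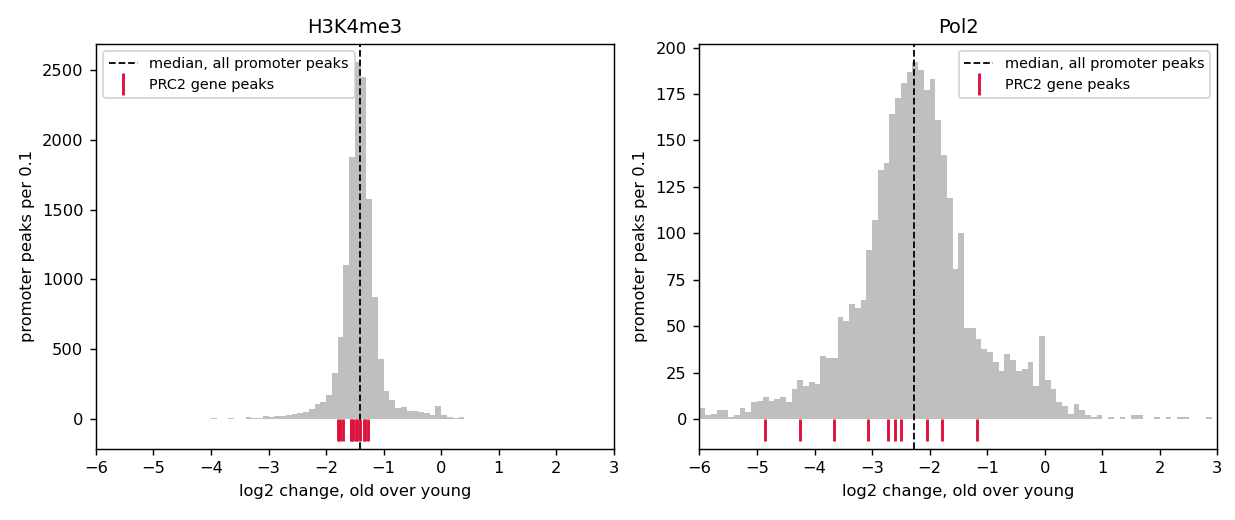
Number of promoter peaks (vertical axis) per 0.1 of log2 change in old over young samples (horizontal axis) for H3K4me3 and Pol2, grey, with PRC2 gene peaks as red ticks and the median of all promoter peaks as a dashed line; peaks beyond -6 or 3 are not drawn. The H3K4me3 ticks sit around the median of -1.42, and the Pol2 ticks run from -4.86 to -1.18 around a median of -2.28.

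H3K27me3, the mark that PRC2 itself makes, was found at 1 member. The authors' deposited table of H3K27me3 annotates 24 peaks to Jarid2 and none to the other 9 genes, and none of the 24 lies within 1 kb of a start. None of the 12 H3K4me3 promoter peaks of PRC2 genes overlapped an H3K27me3 peak by 1 base or more, while 15.1% of all H3K4me3 promoter peaks did. The nearest came 323 bases short, at the main start of Phf19, and that peak, named for LOC115489582, changed by 0.13 (FDR 0.926) in the authors' deposited table. By contrast, 8 of the 12 overlapped a Pol2 peak, against 24.5% of all promoter peaks. The PRC2 promoters thus carried H3K4me3, and mostly Pol2, and no listed H3K27me3 peak overlapped them; each table holds 1 set of peaks for both ages.

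Upstream of Jarid2 lay a broad H3K27me3 domain of 20 peaks, from 136.9 to 11.2 kb before its first start and covering 66.8% of that stretch, which also holds the non-coding RNA gene Gm40931. The domain ended 9168 bases before the H3K4me3 peak of the Jarid2 promoter. Its 6 peaks over 5 kb wide held 78.9% of the covered bases and, in the authors' deposited table, had log2 changes between -0.19 and 0.29, none of them called. These wide peaks had close levels at both ages, with 54 to 82 normalized reads per kb in young and 66 to 85 in old samples over these 6 peaks in the authors' deposited table. Of all 20 upstream peaks 17 were above 0 and 3 below in the authors' deposited table, where 19534 of all 33204 distal intergenic peaks were above 0, with a median of 0.13. As background, the authors' deposited table calls 2.66% of its 67985 peaks higher and 2.6% lower. In the authors' deposited table, 1 of the 20 upstream peaks passed the FDR threshold upward, a peak of 1205 bases near the far end (chr13:44595739-44596943). It went from 4.74 to 6.36 on the log2 scale, a change of 1.62 (FDR 0.00998) in the authors' deposited table. Per kb it held 22.2 normalized reads in young and 68.2 in old samples in the authors' deposited table. The medians over all H3K27me3 peaks were 50.7 in young and 55.2 in old samples.

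Within the Jarid2 gene, H3K27me3 peaks lay on the other side of 0, a difference from the upstream domain that was not tested. Of all 18804 H3K27me3 peaks in introns or exons, 7381 were below 0 and 327 were called lower in the authors' deposited table. The 4 peaks in Jarid2 were all below 0, and 2 were called lower in the authors' deposited table, read against the 2.6% of all peaks given above. One is an intronic peak of 453 bases (chr13:44869571-44870023) that went from 10.51 to 9.75 in the authors' deposited table, a log2 change of -0.77 (FDR 0.002). That short peak held 3219 normalized reads per kb in young samples, more than 99.97% of all peaks in the authors' deposited table, a level far above the upstream domain. The other, annotated to an exon (chr13:44908729-44912464), went from 8.28 to 7.28 in the authors' deposited table, a change of -1.0 (FDR 0.0215). The 2 remaining intronic peaks changed by -1.22 (FDR 0.581) and -1.79 (FDR 0.535) in the authors' deposited table and were not called.

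**Figure D3:**
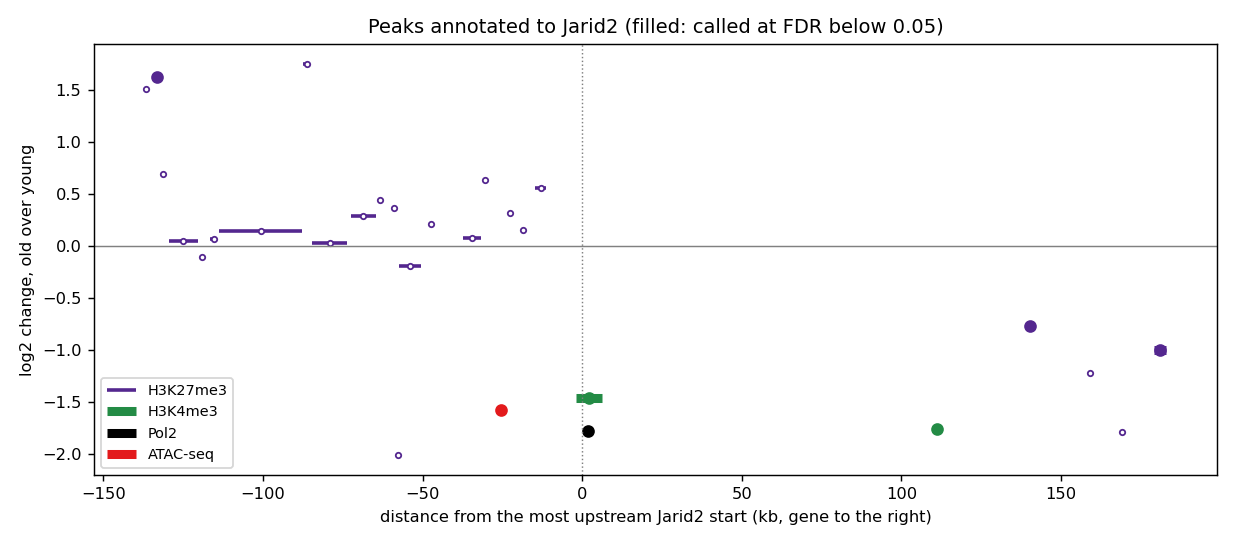
Log2 change in old over young samples (vertical axis) of each peak annotated to Jarid2 against its distance from the most upstream Jarid2 start (kb, horizontal axis, gene to the right), with bars as wide as the peak and filled points for peaks called at an FDR under 0.05. Of the 20 upstream H3K27me3 peaks 17 lie above 0, the 4 in the gene lie below 0, and the H3K4me3, Pol2 and ATAC-seq peaks all lie below -1.4.

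Open chromatin was listed at 1 member, again Jarid2, at a site 26474 bases upstream of a start (chr13:44703951-44704300) that is annotated as distal intergenic. The 4 young libraries held 48, 116, 178 and 246 counts there (147 ± 84.7, SD, n = 4) and the 4 old ones 84, 37, 43 and 33 (49.3 ± 23.5, SD, n = 4). The groups overlap, because the lowest young library lies below the highest old one. The log2 change was -1.58 (SE 0.446) with an FDR of 0.0196 in edgeR's quasi-likelihood test with equal library sizes. At that setting 46.4% of the 7849 listed peaks were called lower and 5.43% higher, and of distal intergenic peaks 45.8% were called lower. The table holds only peaks already selected on the same ages, so an FDR here orders peaks and does not bound false calls.

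The call on the Jarid2 site depended on the scaling. Total counts over listed peaks were 2456110 to 2773284 in young and 1572998 to 1946804 in old libraries, and TMM scaling moves the median log2 change of all peaks up by 0.59. With TMM the change at Jarid2 was -0.99 (FDR 0.164, edgeR), and 0.701% of peaks were called lower and 13.9% higher. The direction held under each scaling tried, at a peak that was listed because it differed between these ages. Between the H3K27me3 peaks on its flanks, the open site stood 4446 bases from the left one (log2 change 0.63, FDR 0.473) and 2011 bases from the right one (0.32, FDR 0.936) in the authors' deposited table of H3K27me3. Neither flank was called.

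**Figure D4:**
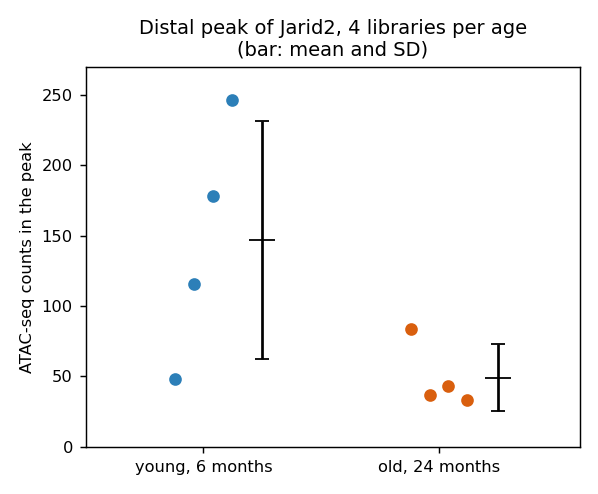
ATAC-seq counts (vertical axis, from 0) in the distal peak of Jarid2 for each of 4 young and 4 old libraries, with the mean and SD as a black bar. Young libraries spread from 48 to 246 counts and old ones from 33 to 84, so the ranges overlap.

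The listed peaks with counts most like those of the Jarid2 site across the 8 libraries were annotated to Rassf9 (Pearson's r = 0.990 of log2(count + 1)), Prss53 (0.981) and Rpl19 (0.979). These are the highest 3 of 7849 peaks, over 8 libraries that share the age difference and the unscaled totals.

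Genes that act with PRC2 or against it were followed in 5 lists with 37 genes. The other PRC2 partners (Aebp2, Epop, Ezhip, Lcor and Lcorl) had 4 H3K4me3 promoter peaks, and 4 were called lower in the authors' deposited table. Among all H3K4me3 promoter peaks 94.3% were called lower. Epop, which links PRC2 to the elongin complex, had a change of -1.81 (FDR 7.26e-09) in H3K4me3 and of -7.79 (FDR 1.05e-07) in Pol2 in the authors' deposited table of each. Epop was the one gene of that list with a Pol2 peak, and the levels of that peak per age are not given here. Its Pol2 change may therefore rest on a low old level, as at Ezh2. Aebp2, the usual companion of Jarid2 in PRC2, had an ATAC-seq peak 1 to 2 kb from its start with 267, 252, 262 and 328 counts in young and 180, 110, 160 and 99 in old libraries. The log2 change at Aebp2 was -1.01 (FDR 0.0161, edgeR, equal library sizes) and was not called with TMM (FDR 0.503).

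Genes of PRC1, the complex that adds ubiquitin to histone H2A and reads H3K27me3 in its canonical form, had shares of called H3K4me3 promoter peaks near the 94.3% of all promoters. Canonical PRC1 genes had 17 of 18 promoter peaks called lower (median -1.45, from -5.66 to -0.54) and variant PRC1 genes 18 of 19 (median -1.48) in the authors' deposited table of H3K4me3. The levels behind the -5.66 are not given here, so it too may rest on a low old level. In the authors' deposited table of Pol2, 3 of 3 promoter peaks of canonical PRC1 genes were called lower, against 79.1% of all promoter peaks, led by the ubiquitin ligase Rnf2 (-3.42, FDR 0.000332). For variant PRC1 genes 1 of 3 was called lower in the authors' deposited table, that of Bcorl1 (-2.49, FDR 0.00487). The RNA of Phc1, a canonical PRC1 gene, is listed at a log2 change of -0.59 (adjusted p = 0.0527 by DESeq2) in the authors' deposited table and was not called.

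H3K27me3 promoter peaks were annotated to 3 of 14 canonical and 1 of 11 variant PRC1 genes, and to 0 of 10 PRC2 genes. The other PRC2 partners, the PR-DUB genes and the H3K27 demethylase genes had none either. Over canonical PRC1 genes 1 of 3 such promoter peaks was called lower in the authors' deposited table, that of Bmi1 (-1.08, FDR 0.00824), against 9.19% of all H3K27me3 promoter peaks. Auts2, a variant PRC1 gene, had 1 promoter peak, called lower in the authors' deposited table (-2.46, FDR 0.04). A wide H3K27me3 peak distal to Scmh1 was also called lower (-0.97, FDR 2.86e-08), and one distal to Cbx7 higher (1.25, FDR 0.0346), in the authors' deposited table. One distal to Rybp, a variant PRC1 gene, was called lower there (-6.08, FDR 4.59e-06). The levels of that Rybp peak are not given here, so its change may rest on a low old level. Of all H3K27me3 peaks of canonical PRC1 genes 4 of 24 were called lower and 1 higher. For variant PRC1 genes 9 of 52 were called lower and 0 higher. Among all peaks 2.6% were lower and 2.66% higher. The lower calls came from 2 genes in each list. The PRC2 genes and the PRC1 genes were not tested against each other.

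Enzymes that undo Polycomb marks also had H3K4me3 promoter peaks called lower, as 94.3% of all promoter peaks were. In the authors' deposited table of H3K4me3, 5 of 5 promoter peaks of PR-DUB genes, which remove ubiquitin from histone H2A, were called lower (median -1.57). The H3K27 demethylase genes Kdm6a, Kdm6b and Uty had 4 of 4 called lower in the authors' deposited table, with a median of -1.67 and a range from -5.94, at 1 of the 2 Kdm6b peaks, to -1.57. The levels behind the -5.94 are not given here, so it may rest on a low old level. Kdm6a, the X-linked demethylase, had a Pol2 change of -2.74 (FDR 0.00207) in the authors' deposited table. An ATAC-seq peak at the Kdm6b promoter held 154, 246, 240 and 227 counts in young and 100, 90, 137 and 145 in old libraries, with a log2 change of -0.88 (FDR 0.0281, edgeR, equal library sizes). With TMM scaling the change at that Kdm6b peak was -0.26 and was not called. A second Kdm6b peak (chr11:69452351-69452750), in an exon, went the other way, with 91, 81, 186 and 151 counts in young and 178, 116, 214 and 278 in old libraries. The groups overlap there, and its log2 change was 0.63 (FDR 0.087, edgeR, equal library sizes; 1.26, FDR 0.00867, with TMM, where it was called higher).

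**Figure D5:**
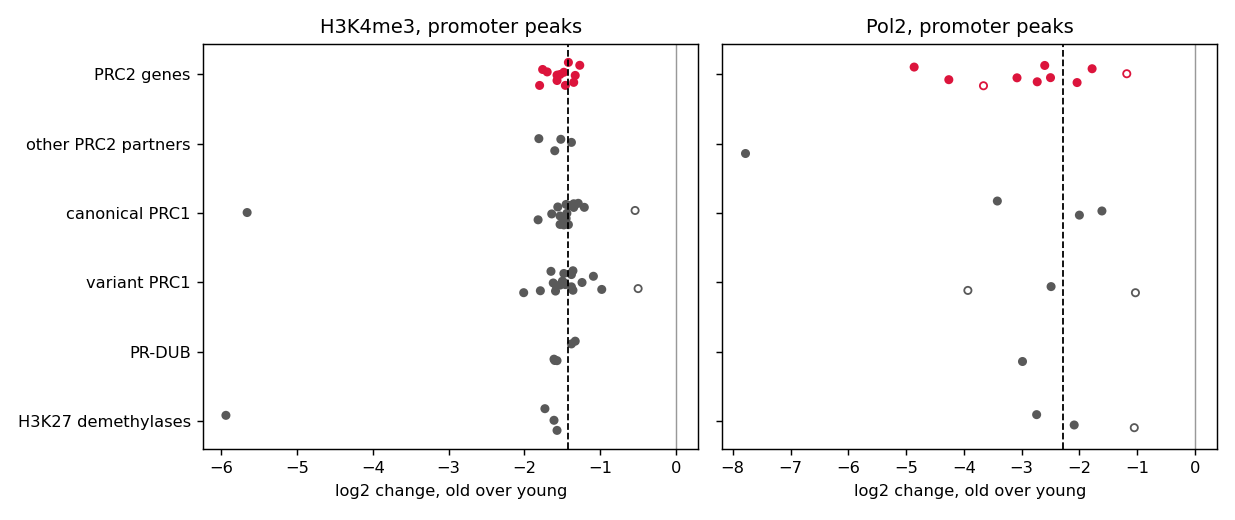
Log2 change in old over young samples (horizontal axis) of each promoter peak of the PRC2 genes (red) and of 5 related lists (grey) for H3K4me3 and Pol2; filled points were called at an FDR under 0.05, the dashed line is the median of all promoter peaks and points are spread vertically for legibility. PRC2 gene peaks lie around the dashed line in both panels, and the other lists overlap them.

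Markers of the sorted cells were checked in the H3K4me3 table. All 8 follicle stem cell markers had a promoter peak, from 687 to 2860 normalized reads per kb in young samples in the authors' deposited table. Of markers of other cells, 2 of 4 of interfollicular epidermis, 3 of 4 of fibroblasts and 1 of 3 of melanocytes had one, from 222 to 435 reads per kb in the authors' deposited table, and 0 of 4 immune and 0 of 2 endothelial markers. The summed level went from 11871 to 4216 reads per kb over the stem cell list and from 1136 to 399 over the fibroblast list in the authors' deposited table, beside the falls at PRC2 genes. All 9 cycling-cell markers had a peak, with a sum of 3715 in young and 1256 in old samples in the authors' deposited table, and Ezh2 is a gene known to rise in dividing cells. The median log2 change over promoter peaks was -1.47 for stem cell, -1.62 for cycling-cell and -1.855 for fibroblast markers in the authors' deposited table. It was -1.065 for epidermis and -1.13 for melanocyte markers, against -1.42 over all promoter peaks. In RNA, the authors' deposited table lists the immune gene Cd74 at a log2 change of -1.36 (adjusted p 2.36e-06 by DESeq2), the fibroblast gene Col1a2 at -0.39 (0.0861) and the stem cell gene Nfatc1 at -0.34 (0.0948), the last 2 not called, beside the fall of Phf1. The part of these cell types in the results on PRC2 genes was not tested.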

How the data were processed

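Per the submitters' processing notes, RNA-seq went through STAR 2.5.2b (GRCm38.p5), featureCounts and DESeq2 1.22.2. For RNA, the deposited columns give a mean normalized signal, the log2 change, its standard error, a test score, the p-value and its adjusted value, per the file headers. ATAC-seq was aligned with BWA 0.7.12 and ChIP-seq with BWA 0.7.15 to GRCm38, with MACS2 2.2.7.1 peaks compared in DiffBind 2.14.0, as those notes state. For ChIP-seq, the deposited columns give log2 levels per age, their difference (turned here to old over young), p-values and FDRs, per the file headers. The deposited ATAC-seq table gives whole counts per library, a log2 ratio and a −log10 p-value; its peaks start at a −log10 p-value of 2.00 and a log2 ratio of size 0.50.

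The ATAC-seq counts were tested with edgeR 4.0.16 (quasi-likelihood, equal library sizes, filterByExpr, which removed no peak, two-sided, Benjamini-Hochberg) in R 4.3.3, over all 7849 peaks. On simulated data with these peaks, 2.99% of changes of 0.5, 44.8% of 1 and 97.0% of 2 (log2) were recovered, with 2 false calls. That simulation had no selection on age and changed 67, 67 and 66 peaks of these sizes, as many up as down. In the data far more peaks were called, mostly lower, so these rates need not hold there. Other tables' calls are the authors' at 0.05. No 2 libraries of an age agreed within sampling noise (lowest chi-square per degree of freedom 10.8). Overlaps used bedtools 2.31.1, with at least 1 base. Members are named with all their peaks; of each related list at most 3 called genes per table, by the smallest p. The members and lists were chosen with earlier results of these data known. Promoter sequences are RefSeq's, GRCm38.p6. Alternatives were other scalings, DESeq2 1.42.0, a replicate block, each library left out, other thresholds and other overlaps.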

Additional observations from a re-analysis of the deposited data

Results flagged for a closer look

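An ATAC-seq peak in an intron of Pcgf5 (chr19:36364751-36365150), a variant PRC1 gene, held 98, 126, 95 and 96 counts in the 4 old libraries and 155, 147, 343 and 237 in the young ones. It stands out because 1 old library, with 126 counts, lay far from the others: its gap to the next is 0.903 of the range of the old group, above Dixon's limit for 4 samples. It was 1 of 24 groups checked, and chance alone sets apart about 1 in 20 groups. The log2 change of this peak was -1.09 (FDR 0.0204, edgeR, equal library sizes), and with TMM scaling it was -0.49 (FDR 0.576) and not called. The other Pcgf5 peak (chr19:36470301-36470500) was called higher at both settings, with a change of 1.03 (FDR 0.0408) and of 1.58 with TMM (FDR 0.00478).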

How the results depend on the processing

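The lower ATAC-seq count at the Jarid2 site kept its direction under every alternative run. Its log2 change was -0.99 with TMM scaling, -1.06 with library sizes summed over listed peaks (FDR 0.119) and -0.998 in DESeq2 with its own size factors (FDR 0.145), and in none of these was it called; DESeq2 with equal size factors called it (-1.58, FDR 0.00613). With each library left out it ran from -1.96 to -1.21 (FDR 0.0123 to 0.0467) and remained called. The listed peaks were already selected on the same ages, so neither the kept direction nor these calls are independent support. Peaks called lower numbered 3643 with equal sizes, 55, 80 and 82 under those 3 scalings, and 1409 to 3197 with a library left out (1409 without old replicate 3). Peaks called higher numbered 426, then 1088, 1070 and 1082, and 141 to 373 with a library left out (141 without old replicate 3). With the replicate number as a block, the change was -1.50 (FDR 0.0582, not called), with 755 peaks called lower and 91 higher. Same-numbered libraries correlated at -0.186 to 0.035 and differently numbered ones at -0.097 to 0.166. These correlations cannot show whether the numbers mark pairs. At an FDR of 0.01 the authors' deposited tables call 4 Pol2 peaks, not including that of Ezh2, and 1 H3K27me3 peak of members lower. At 0.1 they call 2 Jarid2 H3K27me3 peaks higher, and at an adjusted p of 0.01 the authors' DESeq2 table calls 0 member RNAs (1 at 0.05, with an unadjusted p of 0.000321). No H3K27me3 promoter peak of a member was listed, so alternatives there gave no value. No paired analysis was possible for RNA and ChIP-seq because those tables hold no values per library. Sums of ATAC-seq counts over listed peaks are not depths, so no limit from depth is given.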
